A study of Mus musculus with 7 samples.

Results

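The healthy colorectum profiles are the 3 columns M1, M2 and M3 of a count table of 6 mice, chosen by their labels as healthy. They come from female wild-type C57BL/6 mice with an age given as 7 weeks, which received 0.9% NaCl in place of the carcinogen azoxymethane. The labels do not spell out what these mice drank, and no other allele or agent is named for them. The other 3 columns belong to mice with chemically induced colorectal cancer and enter no value here. Small RNA of the whole colorectum was sequenced on an Ion Proton, so every level is that of a mixture of mucosa, muscle wall, vessels, nerves and blood. In such bulk tissue, fewer cells of a type and less RNA per cell cannot be told apart.

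MicroRNAs (miRNAs) are short RNAs cut from the stem of a hairpin precursor. Either strand of the stem can be loaded into an Argonaute protein: the 5p arm comes from the 5′ side of the hairpin and the 3p arm from the 3′ side. Pairing of the seed, the bases near the 5′ end, to a messenger RNA directs its repression, so miRNAs that share a seed form a family with overlapping targets. In the gut, miR-143 and miR-145 are known for smooth muscle and mesenchyme, while miR-192, miR-194, miR-215 and the miR-200 family are known for epithelium.

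Sequences are printed for some of the larger families, so that the shared seed and the bases that tell members apart can be seen. Those of miR-145 and miR-143, which held the most reads, are not among them. Bases 2 to 8, the seed, are in capitals, and T stands for U as in the count table. All letters are the same in RefSeq for GRCm38.p6, in which 1623 of the 1915 mature entries of the table were found by name and 1615 had the same letters. The first is miR-21a-5p, the most abundant miRNA of M3.
miR-21a-5p: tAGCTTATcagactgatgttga
The pair miR-192-5p and miR-215-5p has 1 seed, and the second differs from the first by C1A, A12T and C20A, counted from 1 at the 5′ end.
miR-192-5p: cTGACCTAtgaattgacagcc
miR-215-5p: aTGACCTAtgatttgacagac
The miR-200 miRNAs have 2 seeds that differ at base 4. Against miR-200a-3p, miR-141-3p has C17A and T22G and keeps the seed, while miR-200b-3p has C4T, T9C, C17T and T22A.
miR-200a-3p: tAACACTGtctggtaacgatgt
miR-141-3p: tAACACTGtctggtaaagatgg
miR-200b-3p: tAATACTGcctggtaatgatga
The miR-29 members share 1 seed, and against miR-29b-3p, miR-29a-3p has T10C, A18G, G21T and T22A.
miR-29b-3p: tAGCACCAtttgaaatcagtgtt
miR-29a-3p: tAGCACCAtctgaaatcggtta
The pair miR-19b-3p and miR-19a-3p differs by C11T alone, and let-7a-5p differs from let-7f-5p by G12A and from let-7c-5p by A19G.
miR-19b-3p: tGTGCAAAtccatgcaaaactga
miR-19a-3p: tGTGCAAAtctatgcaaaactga
let-7a-5p: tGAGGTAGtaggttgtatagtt
let-7f-5p: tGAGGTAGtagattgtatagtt
let-7c-5p: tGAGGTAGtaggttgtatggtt

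The columns hold 12416552 reads in M1, 15280434 in M2 and 8222508 in M3. Levels are CPM, the reads of an entry after the column's total is scaled to 1000000, and 3 reads, taken as the limit that a count of 0 allows, correspond to 0.242, 0.196 and 0.365 CPM. Intervals and floors cover counting error only. The profiles of M1 and M2 were alike and that of M3 stood apart. Over the 444 miRNAs with a mean of at least 10 CPM, Pearson's r of log2(CPM + 0.5) was 0.993 between M1 and M2, 0.917 between M1 and M3 and 0.907 between M2 and M3; as descriptions over miRNAs, which are no replicates of a mouse. The median miRNA differed 1.22-fold between M1 and M2, 1.75-fold between M1 and M3 and 2.05-fold between M2 and M3. The labels give M1 and M2 as separate mice, and their counts were not identical. Because results that rest on M3 recur, values without it are given beside them.

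A small number of miRNAs held most of the reads, and the number was larger in M3. In M1, 4 miRNAs made up 50% of the reads, in M2 3 and in M3 7. For 90% of the reads, 41 miRNAs were needed in M1, 36 in M2 and 60 in M3. The profile of M2 was thus the most concentrated and that of M3 the least, and 61 miRNAs lay at 1000 CPM or more in every mouse. At least 1 read was seen for 1808 entries in M1, 1789 in M2 and 1629 in M3. At the total of M3, 1735 would be detected from M1 and 1643 from M2 on average. By a level of at least 1 CPM the order was different, with 824 entries in M1, 719 in M2 and 955 in M3.

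The highest mean level was that of miR-145a-5p, a miRNA known from the contractile state of smooth muscle. It stood at 277945 CPM in M1, 366589 in M2 and 130800 in M3, a mean of 258445 ± 119098 (SD, n = 3). It ranked first in M1 and M2 and second in M3, and its mean without M3 was 322267. miR-143-3p, made from the same precursor region, stood at 133891, 109729 and 76645 CPM in M1, M2 and M3, a mean of 106755 ± 28738 (SD, n = 3). M3 was the lowest mouse for both.

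The third of the list, miR-21a-5p, is broadly expressed and known for its rise in injured and growing tissue. It reached 73318 CPM in M1, 77206 in M2 and 150361 in M3, a mean of 100295 ± 43402 (SD, n = 3), and its mean without M3 was 75262. Here M3 was the highest mouse, and in it miR-21a-5p ranked first. As a share of reads, miR-21a-5p took 15.0% in M3, with a 95% Wilson interval of 15.0% to 15.1%, against 7.33% in M1 and 7.72% in M2, so counting error is small beside the spread between mice.

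Epithelial miRNAs followed. miR-200a-3p, which represses the ZEB factors that drive loss of epithelial identity, stood at 41931, 34153 and 40330 CPM in M1, M2 and M3. miR-192-5p, abundant in intestinal epithelium, stood at 39066, 38107 and 31393 CPM. The ranges of these 2 overlapped, and miR-192-5p was above miR-200a-3p in M2 alone. miR-194-5p, which shares precursors with miR-192 and miR-215, had 25014, 18230 and 14890 CPM, highest in M1. miR-215-5p had 12540, 15790 and 5483 CPM, with M3 below the other 2.

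The remaining miRNAs of the first 20 belonged to several other families, apart from miR-200b-3p of the miR-200 family. miR-29b-3p, which targets collagen messenger RNAs, stood at 20377 CPM in M1, 18039 in M2 and 51446 in M3. miR-29a-3p, of the same seed, stood at 8692, 6393 and 19403 CPM. In both, M3 was more than 2-fold above either other mouse by totals. The most even of the 20 were miR-23b-3p, with 22842, 20783 and 23197 CPM, and miR-19b-3p, with 21824, 22280 and 19933 CPM, when scaled by totals. The others, with mean levels between 8885 and 17750 CPM, were miR-23a-3p, miR-30d-5p, miR-26a-5p, miR-200b-3p, miR-30c-5p, miR-103-3p, miR-3074-5p, miR-30a-5p and miR-24-3p.

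The order within the first 20 was loose. Of its 19 neighbouring pairs, 1 had ranges that did not overlap, that of miR-21a-5p over miR-200a-3p, and 2 kept the same order in all 3 mice. The lists of 20 made in each mouse alone shared 15 miRNAs, and 25 were in at least 1 list. M1 and M2 shared 19, M1 and M3 16, and M2 and M3 15. Without M3, miR-141-3p entered the first 20 and miR-29a-3p left it. The plot of the 20 most abundant miRNAs shows these ranges.

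**Figure D1:**
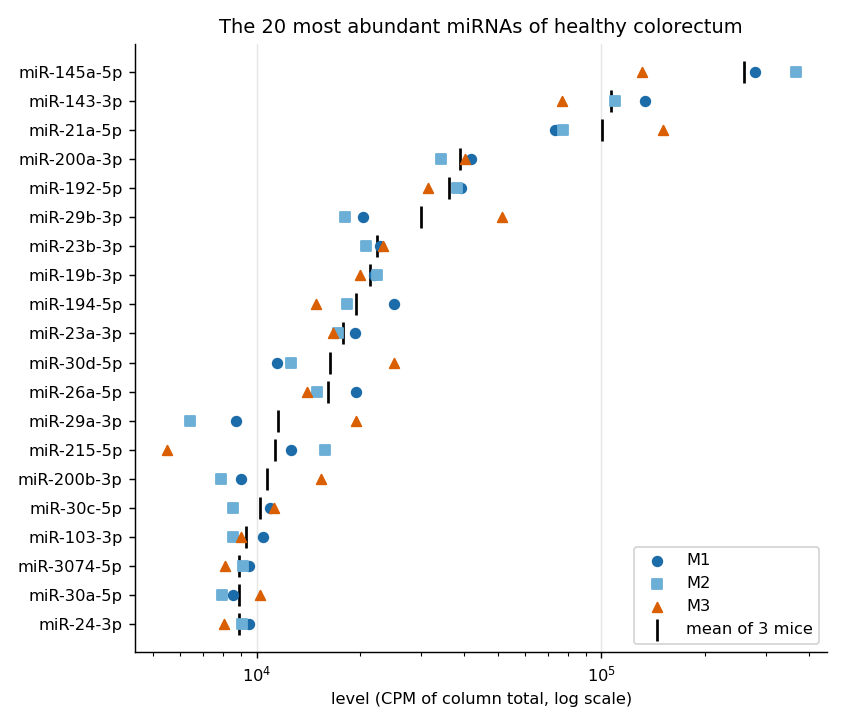
Level of the 20 miRNAs with the highest mean, in CPM of the column total on a log axis; each symbol is 1 mouse and the bar is the mean of 3. M3 lies below M1 and M2 for miR-145a-5p and miR-143-3p and above both for miR-21a-5p, miR-29b-3p, miR-29a-3p and miR-30d-5p.

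A pair of entries in that list received nearly equal counts in every mouse. Shown for that reason, miR-24-3p and miR-3074-5p are reverse complements of each other over 20 bases, and so are miR-142a-3p and miR-142b, which come up again under the spread.
miR-24-3p: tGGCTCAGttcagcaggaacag
miR-3074-5p: gTTCCTGCtgaactgagccagt
miR-142a-3p: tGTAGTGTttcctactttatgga
miR-142b: tCCATAAAgtaggaaacact
miR-24-3p had 118223 reads in M1, 139021 in M2 and 66075 in M3, and miR-3074-5p had 118022, 139850 and 66376, within 1 point of an equal split in each mouse. Counted together they reached 17795 ± 1511 CPM (SD, n = 3) and rank 10. Most entries with identical letters split nearly by their number of hairpins: miR-199a-3p, with 2 hairpins, took 66.7%, 66.5% and 66.8% of its sum with miR-199b-3p, which has 1. Among reverse-complement pairs with a summed mean of at least 100 CPM, 9 of 13 lay within 5 points of the ratio of their hairpin numbers, as did 3 of 3 identical pairs. With a summed mean of at least 10 CPM, 14 of 26 and 7 of 9 did. A pair that did not was miR-126a-3p, an endothelial miRNA, which took 98.3%, 99.1% and 98.9% of its sum with miR-126b-5p. The sources used here do not say how reads that match several entries, or either strand, were assigned, and the level of each entry in an evenly split pair is uncertain.

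By seed, 1538 families were listed, and 4 of them held 50% of the mean profile and 26 held 90%. The 10 largest took 76.4% of the reads in M1, 80.3% in M2 and 68.5% in M3. The largest 3 were led almost wholly by 1 miRNA each: miR-145a with miR-145b at 26.0% ± 11.9 (SD, n = 3), miR-143 at 10.7% ± 2.87 and miR-21a at 10.0% ± 4.34. The miR-145 family took 27.9% in M1, 36.8% in M2 and 13.2% in M3, and 32.3% on average without M3.

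Of the families known from epithelium, 2 were among the 10 largest. miR-192 with miR-215 took 5.16%, 5.39% and 3.69% of the reads in M1, M2 and M3, and miR-200a with miR-141 took 4.95%, 4.23% and 4.48%. By totals they spanned 1.46-fold and 1.17-fold over the mice, and on totals scaled by the trimmed mean of M values (TMM) 2.66-fold and 1.72-fold, lowest in M3. Further down, miR-200b with miR-429 and miR-200c took 1.58%, 1.31% and 2.57%, highest in M3, and miR-194 took 2.50%, 1.82% and 1.49%. Within the family of miR-200a, miR-200a-3p supplied 84.7%, 80.8% and 90.1% of the family's reads and miR-141-3p, made on another chromosome, the rest. Within that of miR-192, miR-192-5p supplied 75.7%, 70.7% and 85.1%. In both of these families the leading member's share was highest in M3.

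Some families were shared out among many members. The miR-30 family, at 3.89%, 3.57% and 5.94% of reads in M1, M2 and M3, was led by miR-30d-5p, which supplied 35.5% ± 6.27 (SD, n = 3) of it, before miR-30c-5p, miR-30a-5p and miR-30b-5p. The let-7 family, known for its rise at the end of development, took 4.08%, 2.91% and 4.73%. Its leading member let-7f-5p supplied only 18.1% ± 0.276 (SD, n = 3), and let-7a-5p, let-7g-5p and let-7c-5p between 15.0% and 16.3% each on average. Since let-7a-5p differs from let-7f-5p and let-7c-5p at 1 base each, the split among them depends on how reads with a mismatch were assigned.

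The miR-29 family took 3.05% in M1, 2.51% in M2 and 7.23% in M3, a span of 2.88-fold by totals beside 2.79-fold for the miR-145 family. On TMM-scaled totals the miR-29 family spanned 1.69-fold and the miR-145 family 5.08-fold. Its makeup changed little: miR-29b-3p supplied 66.7%, 71.8% and 71.1% of it. The miR-23 family took 4.21%, 3.80% and 3.99% of the reads, split between miR-23b-3p with 55.7% ± 2.16 (SD, n = 3) and miR-23a-3p. The miR-19 family took 2.38%, 2.40% and 2.58%, but its makeup differed: miR-19a-3p supplied 8.49% and 7.22% of it in M1 and M2 and 22.9% in M3. The even shares of the miR-23 and miR-19 families are by totals: by TMM they spanned 1.74-fold and 1.69-fold, lowest in M3.

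**Figure D2:**
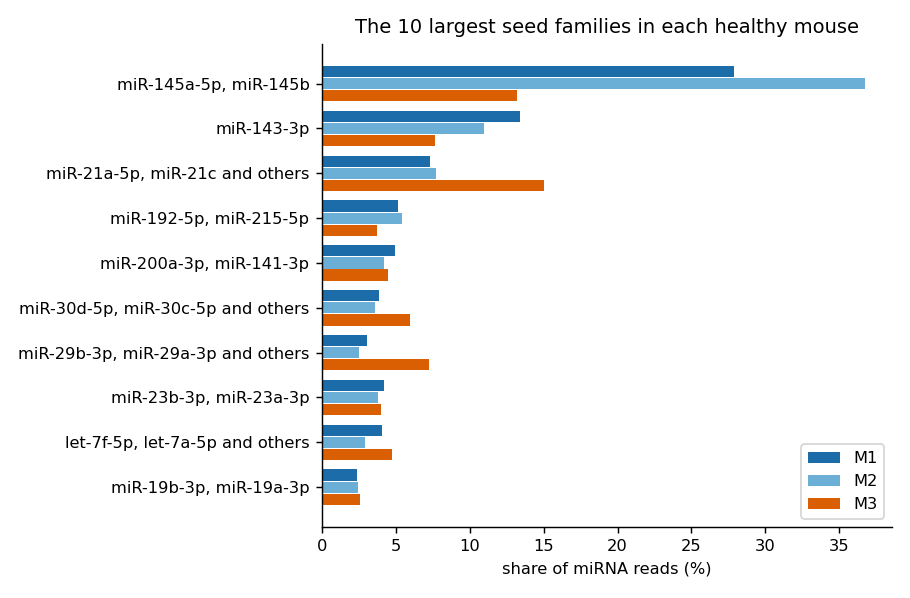
Share of all miRNA reads (%) held by the 10 seed families with the highest mean share, as 3 bars per family, 1 per healthy mouse; up to 2 leading members name each family. The miR-145 family spans 13.2% to 36.8% and the miR-29 family 2.51% to 7.23%, while the miR-23 and miR-19 families are nearly level.

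The miR-15 and miR-16 miRNAs, which share a seed and are known for restraining the cell cycle, lay further down. Their sequences show the shared seed and a different 3′ part.
miR-15a-5p: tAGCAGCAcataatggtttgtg
miR-16-5p: tAGCAGCAcgtaaatattggcg
miR-16-5p stood at 6095 CPM in M1, 4093 in M2 and 8805 in M3. miR-15a-5p stood at 1032, 540 and 4574 CPM, and miR-15b-5p at 885, 156 and 630. miR-15a-5p was highest in M3 and miR-15b-5p in M1, and both were lowest in M2. The other arms were low, with means of 84.1 CPM for miR-16-2-3p, 51.0 for miR-15b-3p, 10.2 for miR-15a-3p and 8.16 for miR-16-1-3p.

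Arm choice was counted for the 429 hairpins with at least 10 reads over both arms in each mouse; hairpins that share a mature entry were joined. The 5p arm held over 50% of the reads in every mouse for 202 hairpins and the 3p arm for 167, and for 60 the dominant arm differed between mice. An arm held over 90% in every mouse for 91 hairpins on the 5p and 79 on the 3p side. Disagreement lay mostly among low hairpins: of the 165 with a summed mean of at least 100 CPM, 92 were 5p dominant, 69 were 3p dominant and 4 differed. The median range of the 5p share over the mice was 7.71 points over all 429 and 1.47 points over these 165.

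By reads, the 5p arm held 61.1% in M1, 66.8% in M2 and 58.2% in M3, in the same order of mice as miR-145a-5p. The 4 hairpins at or above 100 CPM whose dominant arm differed were mir-199b, mir-872, mir-434 and mir-130b. The 5p share of mir-434, from the imprinted Dlk1-Dio3 region, was 61.1% in M1, 65.4% in M2 and 12.5% in M3. That of mir-130b was 58.2%, 65.2% and 35.3%. For mir-872 it was 48.8%, 52.8% and 35.4%, so that M1 and M2 themselves lay on either side of 50%. In all 4, M3 had the lowest 5p share.

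Entries with common letters bear on some of these shares. mir-199b had 66.5%, 73.2% and 38.5% of its reads on the 5p arm, but its 3p entry has the letters of miR-199a-3p and received a fixed part of their common reads. miR-199a-3p itself, with the other part of those reads, enters mir-199a. Its 2 hairpins had 45.4%, 49.9% and 46.3% on the 5p arm, the mean nearest 50% of all hairpins at or above 100 CPM. mir-142a, a hairpin of blood cells, had 41.1%, 48.5% and 8.60%, with a 3p entry whose counts were close to those of its reverse complement miR-142b. Outside such pairs, mir-1839 had 60.4%, 51.7% and 64.6%, and mir-322 had 73.5%, 63.0% and 91.8%, the one of the 5 widest hairpins in which M3 was the highest mouse.

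**Figure D3:**
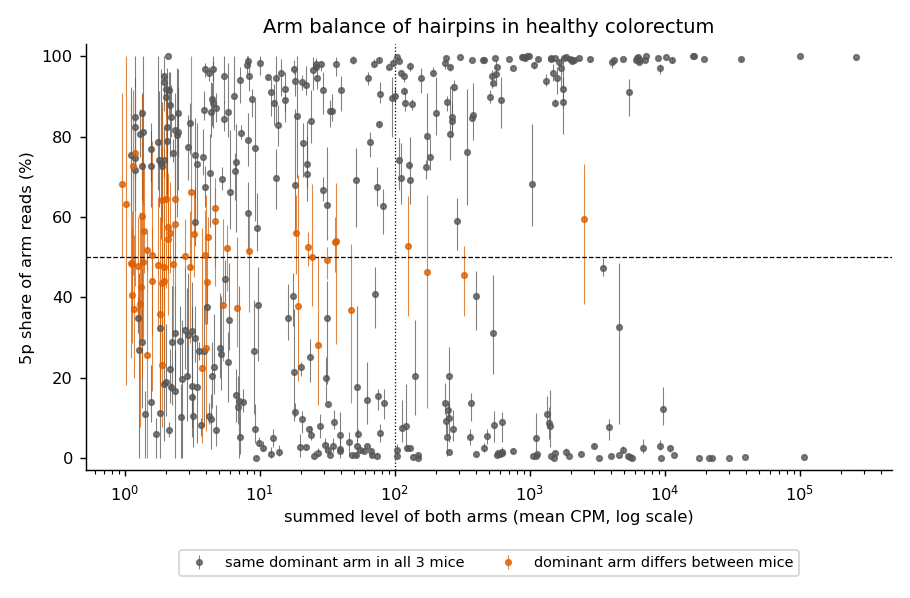
Share of a hairpin's arm reads on the 5p arm (%, mean of 3 mice, bars from the lowest to the highest mouse) against the summed level of both arms (mean CPM, log axis), for 429 hairpins; the dotted line marks 100 CPM and the dashed line 50%. Hairpins whose dominant arm differs between mice (60) lie mostly at low levels, with 4 to the right of the dotted line.

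The first base differed between dominant and other arms. Argonaute proteins are known to favour a U at the 5′ end of the strand they keep. Over hairpins at or above 100 CPM with the same dominant arm in all mice, leaving out those joined by a shared mature entry, T was the first base of 55.3% of 132 dominant arms and of 19.7% of the other arms. C was first in 12.9% of the dominant and 36.4% of the other arms. Weighted by reads, 53.2% of M1, 45.8% of M2 and 67.9% of M3 began with T, and 29.6%, 38.4% and 15.3% began with G. The order of the mice for G is that of miR-145a-5p, which begins with G, and without that miRNA 74.7% of the mean profile began with T.

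GENCODE M21 (GRCm38) placed 1146 of the table's 1193 hairpins, and those within 10 kb on 1 strand were joined. The 76 clusters of 2 or more hairpins held 61.7% of the mean profile, single hairpins 20.6%, and 17.7% belonged to mature entries of several loci. The largest cluster, mir-145a with mir-143 on chromosome 18 (61647825 to 61649258, minus strand, with no annotated gene on that strand around either hairpin), gave 41.3% of the reads in M1, 47.7% in M2 and 20.9% in M3, a mean of 36.6% ± 14.0 (SD, n = 3).

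Next came mir-21a, a single hairpin on chromosome 11 (86584067 to 86584158, minus strand) in an exon of Vmp1, with 10.0% ± 4.35 of reads (SD, n = 3). The cluster of mir-429, mir-200a and mir-200b on chromosome 4 (156053905 to 156055750, minus strand) gave 5.66%, 4.64% and 6.33% in M1, M2 and M3. Its mir-200a and mir-200b hairpins lie in introns of Ttll10 and of the transcript Gm13648. The cluster of mir-194-2 and mir-192 on chromosome 19 (6264643 to 6264932, plus strand, with no annotated host on that strand) gave 3.94%, 3.83% and 3.18%. These shares leave out miR-194-5p, a mature entry of several loci with 2.50%, 1.82% and 1.49% of the reads.

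Members of a cluster come from neighbouring stretches of DNA and often from 1 transcript, yet their levels were not equal. Of 17 clusters with at least 2 entries at or above 100 CPM, the ratio of the highest to the lowest entry spread less than 2-fold over the mice in 10. It was steadiest for miR-191-5p over miR-425-5p, at 3.85, 3.91 and 4.02 in M1, M2 and M3. miR-145a-5p over miR-143-3p was 2.08, 3.34 and 1.71. miR-141-3p over miR-200c-3p was 4.81, 7.38 and 1.43, and miR-19a-3p over miR-17-5p was 7.66, 10.9 and 2.96. In these last 3 ratios M2 was the highest and M3 the lowest mouse.

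The spread among the 3 mice was wide. Of the 444 miRNAs with a mean of at least 10 CPM, 84 differed more than 4-fold between the highest and the lowest mouse, which is 18.9%. M3 was the highest mouse in 82 of the 84 and M2 the lowest in 75. Over all 444, M3 was the highest in 297 and M2 the lowest in 297. The filter is a mean over the mice, so a miRNA high in M3 alone can pass it through M3. The direction of these counts is therefore partly set by the filter. Without M3, 1 of the remaining miRNAs passed 4-fold (0.247%), miR-15b-5p being the one past 4-fold between M1 and M2 in the values above; without M2, 52 passed. The median ratio over the 444 was 2.09, and 126 stayed under 1.5-fold. The median coefficient of variation was 37.5%, against 3.75% from counting alone, and 438 of 444 exceeded their counting value. The common coefficient of variation fitted by edgeR was 0.604 over the 3 mice and 0.217 without M3.

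The scaling matters for these directions. The median miRNA was 0.49 higher on the log2 scale in M3 than in M1 and 0.87 higher in M3 than in M2 by totals, where the share of miR-145a-5p is lower. With TMM-scaled totals, 59 miRNAs passed 4-fold, 40 of them the same, and M3 was the highest mouse in 38 of the 59. TMM scaling took M3 from the highest mouse in 297 of the 444 to 204. miR-145a-5p and miR-215-5p, 2.80-fold and 2.88-fold by totals, spread 5.10-fold and 5.24-fold on that scale, with M3 lowest on both.

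The miRNAs with the highest ratios, among those with a mean of at least 100 CPM, were highest in M3 by either scaling. Of them, miR-31-5p, miR-31-3p, miR-135b-5p, miR-365-3p and miR-190a-5p lay below 100 CPM in M1 and M2. They passed this filter through M3 alone, so their direction was fixed by it. miR-31-5p, known from injured and regenerating gut epithelium, stood at 62.7 CPM in M1, 87.5 in M2 and 4162 in M3. Its other arm miR-31-3p stood at 2.66, 2.49 and 438 CPM, a 176-fold span. miR-135b-5p, known as a target of Wnt signalling in the gut, stood at 8.38, 6.87 and 295 CPM. Both arms of mir-31 thus moved together, and without M3 these 3 miRNAs spanned 1.39-fold, 1.07-fold and 1.22-fold.

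miR-142a-3p, a miRNA of blood cells, stood at 651 CPM in M1, 312 in M2 and 10986 in M3, and its reverse complement miR-142b at 676, 334 and 11147. The other arm, miR-142a-5p, spanned less, at 454, 294 and 1034 CPM. miR-20a-5p and miR-17-5p, of the mir-17 cluster tied to cell growth, stood at 240, 151 and 4735 CPM and at 264, 159 and 1996 CPM. In the same cluster miR-19b-3p, which has a second locus on chromosome X, was level at 1.12-fold. miR-205-5p, known from stratified epithelium such as that of skin, stood at 315, 342 and 4701 CPM. The list of 10 was completed by miR-365-3p with a 24.3-fold and miR-190a-5p with an 11.7-fold span.

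At the other end, miR-199a-5p, a miRNA of fibroblasts and mesenchyme, stood at 1635 CPM in M1, 1657 in M2 and 1639 in M3, a ratio of 1.01. The other 9 of the most even were miR-574-3p, miR-381-3p, miR-182-5p, miR-1900, miR-23b-3p, miR-19b-3p, miR-7a-5p, miR-320-3p and miR-708-5p, with ratios up to 1.14. This evenness holds for totals: on TMM-scaled totals these 10 spanned 1.63-fold to 2.06-fold.

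**Figure D4:**
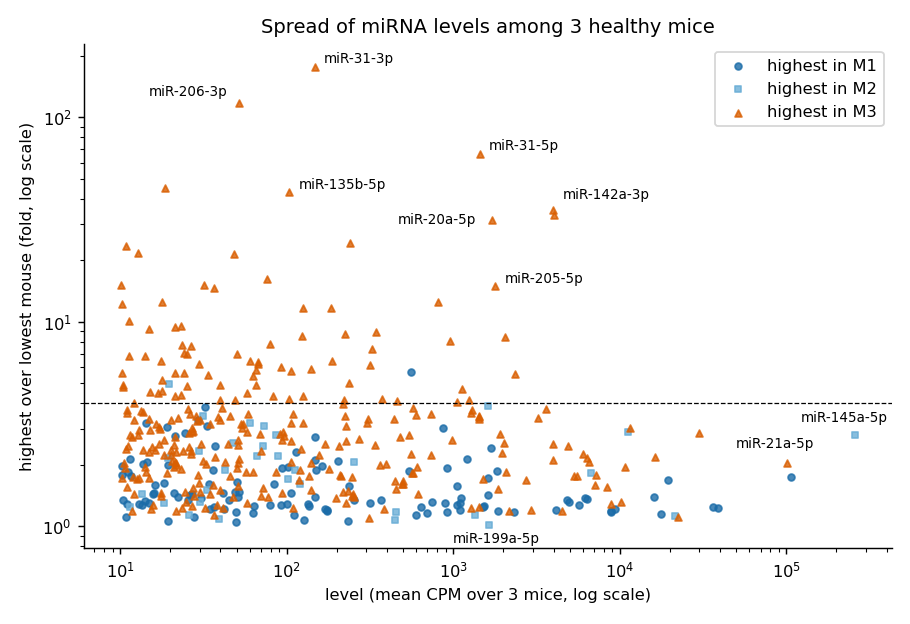
Ratio of the highest to the lowest of 3 healthy mice (fold, log axis) against the mean level (CPM, log axis) for 444 miRNAs, with the symbol giving the highest mouse and the dashed line at 4-fold. Above the line, 82 of 84 miRNAs are highest in M3, beside 297 of all 444, and the largest ratios belong to miR-31-3p, miR-206-3p and miR-31-5p. A miRNA high in M3 alone, such as miR-206-3p, passes the filter on the mean through M3.

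Marker miRNAs were summed to check the labelled tissue and the other cell types a piece of colorectum can hold. All 9 epithelial and all 7 smooth muscle markers were seen in each mouse. So were 1511 of all 1915 entries and every exocrine pancreas marker, so detection alone does not single out this tissue. The epithelial sum was 142529 CPM in M1, 127940 in M2 and 124239 in M3, and the smooth muscle sum was 415722, 479769 and 210971 CPM. The smooth muscle sum stood 2.92-fold above the epithelial sum in M1, 3.75-fold in M2 and 1.70-fold in M3, a ratio that no scaling of totals alters. It is no measure of tissue amounts, as miR-145a-5p and miR-143-3p held 258445 and 106755 CPM of the mean smooth muscle sum of 368821. By totals, miR-143-5p and miR-133a-3p of that list were highest in M3. So were the epithelial miR-200b-3p, miR-200c-3p, miR-429-3p and miR-375-3p, and the other members of both lists were not. The epithelial sum spanned 1.15-fold by totals and 1.87-fold by TMM, and the smooth muscle sum 2.27-fold and 4.14-fold, both lowest in M3. Of these lists 1 of 9 and 0 of 7 members passed 4-fold by totals, against 18.9% of all miRNAs. The one was miR-375-3p, an enteroendocrine and goblet cell miRNA, at 622, 498 and 2028 CPM. By TMM it spanned 2.33-fold, while miR-215-5p and miR-145a-5p of these lists spanned 5.24-fold and 5.10-fold. The members past 4-fold thus changed with the scaling.

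Of the lists of cell types a piece of colorectum can hold, those of squamous epithelium, skeletal muscle and myeloid and lymphoid cells spanned most. Each was highest in M3. Their counts past 4-fold stand beside 18.9% of all miRNAs and come from short lists. These counts are by totals and can change with the scaling. The squamous epithelium sum, of miR-203-3p and miR-205-5p, was 1221 CPM in M1, 1495 in M2 and 9730 in M3, and both members passed 4-fold. For skeletal muscle it was 36.4, 26.6 and 304 CPM, and both members with a mean of at least 10 CPM passed. Of these miR-206-3p, the member most restricted to skeletal muscle, stood at 1.77, 1.31 and 153 CPM, so it reached that mean through M3 alone. The myeloid and lymphoid sum was 3208, 2190 and 17589 CPM, with 3 of 6 past 4-fold: miR-142a-3p, miR-150-5p and miR-155-5p. In M3, 10986 CPM of this sum came from miR-142a-3p, an evenly split entry whose level is uncertain. The other members, miR-342-3p, miR-223-3p and miR-142a-5p, spanned 1.67-fold to 3.52-fold. These 3 lists were highest in M3 by TMM as well, and they moved with the high M3 values of miR-31, miR-135b and the mir-17 cluster; their part in those values was not tested.

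The sums of the other lists spanned less by totals. Their counts past 4-fold, also by totals, stand beside 18.9% of all miRNAs, and lists this short cannot be set apart from that share. The endothelial sum was 7924, 7867 and 13334 CPM in M1, M2 and M3, with 0 of 2 past 4-fold, and by TMM it was highest in M2. The fibroblast sum was 8591, 8192 and 7248 CPM, with 0 of 4 past 4-fold, a span of 1.19-fold by totals and 2.06-fold by TMM. For nerve and glia it was 599, 453 and 682 CPM by totals, with 2 of 6 past 4-fold, miR-219a-5p and miR-137-3p, and by TMM M3 was the lowest mouse. The red blood cell sum was 266, 170 and 633 CPM, with 1 of 3 past 4-fold, miR-144-3p. Some members share letters with a partner entry and split with it by hairpin number, so their levels are uncertain. These are miR-126a-5p, miR-199a-3p and miR-338-3p, and miR-1a-3p of the smooth muscle list.

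Markers of organs that should be absent were near 0. The liver list, with miR-122-5p, summed to 1.45, 1.05 and 0.730 CPM, and miR-122-5p had 17, 15 and 0 reads. Sums for heart, exocrine pancreas and male germ cells were at most 1.13 CPM in any mouse.

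**Figure D5:**
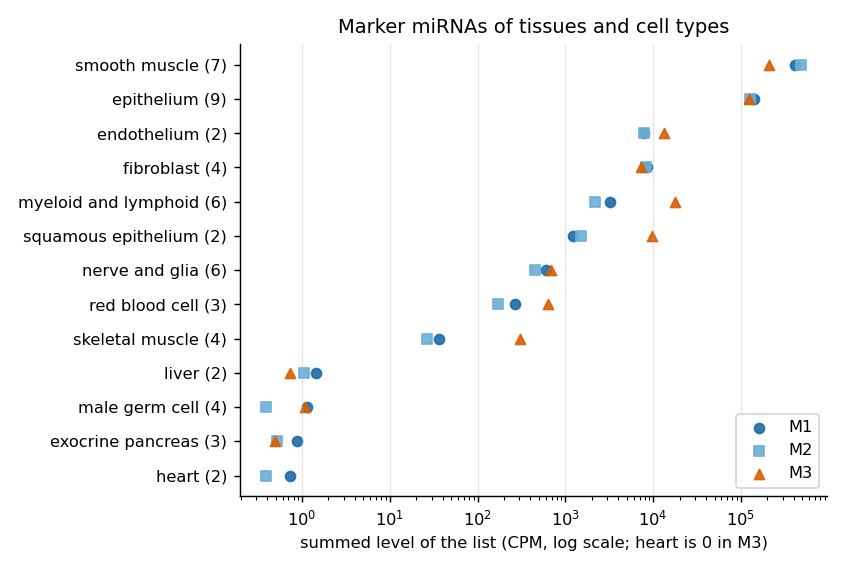
Summed level of each marker list (CPM of the column total, log axis; number of members in brackets), 1 symbol per healthy mouse; the heart list is 0 in M3 and not drawn there. Smooth muscle and epithelium are highest in all 3 mice, and the squamous, skeletal muscle and myeloid and lymphoid lists lie furthest apart, with M3 on the right.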

How the data were processed

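Small RNA was extracted with Trizol and miRNeasy and sequenced on an Ion Proton with the Ion Total RNA-Seq Kit v2, per the labels' protocols. BWA, mm10 and GRCm38 are named in the submitters' processing notes. The authors deposited whole-number counts, not normalized, for 1915 mature entries with their hairpins and sequences, per the file headers. All rows named a miRNA. The 3 columns of mice with cancer were not used. Mouse M1 has 2 labelled libraries and 1 column, taken as 1 mouse; the sources used here do not say if it holds 1 or both.

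CPM, shares, seeds and arm shares were computed with pandas 2.3.3, and TMM and RLE factors and the common dispersion with edgeR 4.0.16, with an intercept only. There is 1 group, so no test was run. A hairpin's 5p share is its 5p reads as a percent of both arms. Entries were taken as pairs where identical or reverse complementary over at least 16 bases. The scripts were tested on simulated data. The members and lists were chosen with earlier results of these data known. The text names the 20 highest miRNAs, the 10 largest seed families with up to 4 members each, the 10 highest and 10 lowest ratios at 100 CPM, hairpins nearest 50%, differing or widest, up to 4 members of each marker list, and the miR-15 and miR-16 arms; other miRNAs, among them those of the clusters and of the pairs, were chosen after their values were seen. Alternatives were other scalings, filters, seed length and cluster distance, and leaving out each mouse.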

Additional observations from a re-analysis of the deposited data

How the results depend on the processing

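Of 236 values recomputed for 42 results, 218 moved by less than the spread between mice or, for counts, less than 1.5 times. Of the 236, 126 left out a mouse. Leaving out a mouse, or taking the median, cannot move a mean of 3 mice by more than its SD. Those values of means therefore say nothing on stability: miR-142a-3p fell from 3983 to 481 CPM without M3 and still stayed within this rule. The median, summed counts and TMM scaling were among the alternatives for the order of miRNAs. Without miR-145a-5p in the total, the miR-145 seed family fell to 0.151%, reads beginning with T rose to 74.7% and the mean GC content was 43.6%, by construction. With a minimum of 100 reads, 131 hairpins were 5p dominant, 111 were 3p dominant and 12 differed between mice; with 1 read, 262 differed, as fewer or more hairpins enter. The number of miRNAs past 4-fold was 32 at a mean of 100 CPM and 458 at 1 read in each mouse, and 237 passed 2-fold. Leaving out a mouse gave between 1 and 87 miRNAs past 4-fold and a common coefficient of variation between 0.217 and 0.709, the lowest of each without M3. Summing identical and reverse-complement entries, an alternative chosen after seeing the data as was leaving reverse-complement entries out of the arm counts, raised miR-3074-5p to 17795 CPM. No paired analysis was possible because 1 group was described. With 3 mice, 1 of which stands apart, the SD is itself uncertain, and shares below the floor of 3 reads cannot be read.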
